A study of Bos taurus with 8 samples.

Results

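The imprinted DLK1-DIO3 cluster miRNAs were examined in bovine rumen fluid. The members were the bovine miRBase entries whose mature sequence mapped to the cluster's window on chromosome 21 of the UMD3.1 genome. This rule used position only and found 34 of the 565 entries listed in at least 1 library, or 34 of the 399 bovine entries. Rumen fluid for small RNA sequencing came from 4 non-lactating, rumen-cannulated adult Holstein cows. Each cow was sampled once on a forage diet with 0% concentrate and once on a high-grain diet (HG) with 65% concentrate. This gave 4 forage and 4 HG libraries. The change to HG was made in steps over a week, and the HG sample came from the first day at 65% concentrate. The forage sample always came first, so diet and time of sampling cannot be told apart. Rumen fluid holds feed, microbes, saliva and cells shed from the rumen wall, so fewer cells of a type and less RNA per cell cannot be told apart either.

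The DLK1-DIO3 region is an imprinted domain, in which the parent of origin decides which copy of a gene is read. The protein-coding genes DLK1, RTL1 and DIO3 are expressed from the paternal chromosome, and the long non-coding RNAs and the miRNAs from the maternal one. The miRNAs lie in groups along these long transcripts, one of them antisense to RTL1, and are cut from them as hairpins with a 5p and a 3p arm. They are best known from placenta, embryo, brain and developing muscle.

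The label was checked against the bovine RefSeq annotation (ARS-UCD2.0), from which gene names, their order and the genes that enclose each miRNA were taken. All 34 members matched a RefSeq miRNA gene, and they came from 32 hairpins. Of these, 32 members lay between DLK1 and DIO3, all on the plus strand. The other 2, bta-miR-10172-3p and bta-miR-10172-5p, lay on the minus strand, 327.3 kb before bta-miR-493, inside the gene BEGAIN and between the coding genes WDR25 and DLK1. They therefore met the positional rule but not the name of the cluster, and the summed values are also given without them. The 63 family names known from the mammalian region matched 52 listed entries, 32 of them bovine and none outside the window. RefSeq listed 59 miRNA genes between DLK1 and DIO3. A member represented 31 of these genes, and 24 had no entry by name in any library. For MIR376C, MIR541 and MIR412, 3 genes in all, only a human homologue of the same hairpin name was listed. The 24 include MIR329A and MIR329B, whose hairpin names differ from that of hsa-miR-329-3p, a human homologue listed in the window. The remaining gene, MIR1247, had 44 reads of bta-miR-1247-5p at chr21:68149445-68149466, which is outside the window.

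The members were scarce in rumen fluid. They held 3009 of 3220041 miRNA reads over the 8 libraries. Reads that mapped to several entries are counted in full at each, unless stated otherwise. The median member had 32 reads in all, against 193 for the 365 other bovine entries. The most abundant member, bta-miR-487b, ranked 142 among the bovine entries. Of miRNAs from imprinted genes elsewhere in the genome, bta-miR-335 had 1221 reads, bta-miR-296-3p 215, bta-miR-296-5p 108 and bta-miR-483 20, and miR-675 and miR-298 were not listed. The first was above every cluster member. At least 10 reads in 1 library were reached by 15 of the 34 members (44.1%) and by 253 of the 365 other bovine entries (69.3%). Reads in all 8 libraries were found for 15 members (44.1%) and for 239 of the other bovine entries (65.5%). The tables list no entry with fewer than 2 reads, so an unlisted member was not shown to be absent.

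Few members carried most of the reads. The first 3, bta-miR-487b, bta-miR-379 and bta-miR-369-3p, had 1354 reads or 45.0% of the members' total. The 8 members with 100 reads or more had 76.5%. Another 3 members had 70 to 99 reads, 15 had 10 to 69 and 8 had fewer than 10. In all, 5 members were listed in 1 library only, with 2 reads each. These were bta-miR-665, bta-miR-136, bta-miR-299 and bta-miR-134 on forage and bta-miR-10172-5p on HG.

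Position along the domain divided the members into 2 groups. The group from bta-miR-493 to bta-miR-370 spans 40.6 kb and had 8 members, 3 of which reached 10 reads in a library. It includes bta-miR-431, bta-miR-433, bta-miR-127, bta-miR-432 and bta-miR-136, which lie within RTL1. Antisense miRNAs at this gene, miR-127 among them, are known to act on the RTL1 transcript of the other chromosome. This group held 253 reads, 8.41% of the members' total. Its most abundant member was bta-miR-127 at chr21:67429798-67429819, with 70 reads and 2 to 15 reads per library. The other members of the group had 47 reads (bta-miR-370), 39 (bta-miR-431), 34 (bta-miR-493), 32 (bta-miR-432), 27 (bta-miR-433) and 2 each for bta-miR-665 and bta-miR-136.

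The group from bta-miR-379 to bta-miR-656 begins 104.6 kb further on and spans 42.9 kb. It had 24 members, 11 of which reached 10 reads in a library, and held 2681 reads or 89.1% of the total. The median member had a similar number of reads in both groups, with 32 in this group and 33 in the other. The difference between the groups' totals thus lay in a few abundant hairpins and in the number of members. The 3 leading members were spread over the group, with bta-miR-379 at its start, bta-miR-487b 21.7 kb and bta-miR-369-3p 41.7 kb after it. Neighbouring hairpins differed widely: bta-miR-411a had 258 reads and bta-miR-299, 0.464 kb from it, had 2. Likewise bta-miR-487b had 565 reads and bta-miR-381, the hairpin before it, had 32.

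**Figure D1:**
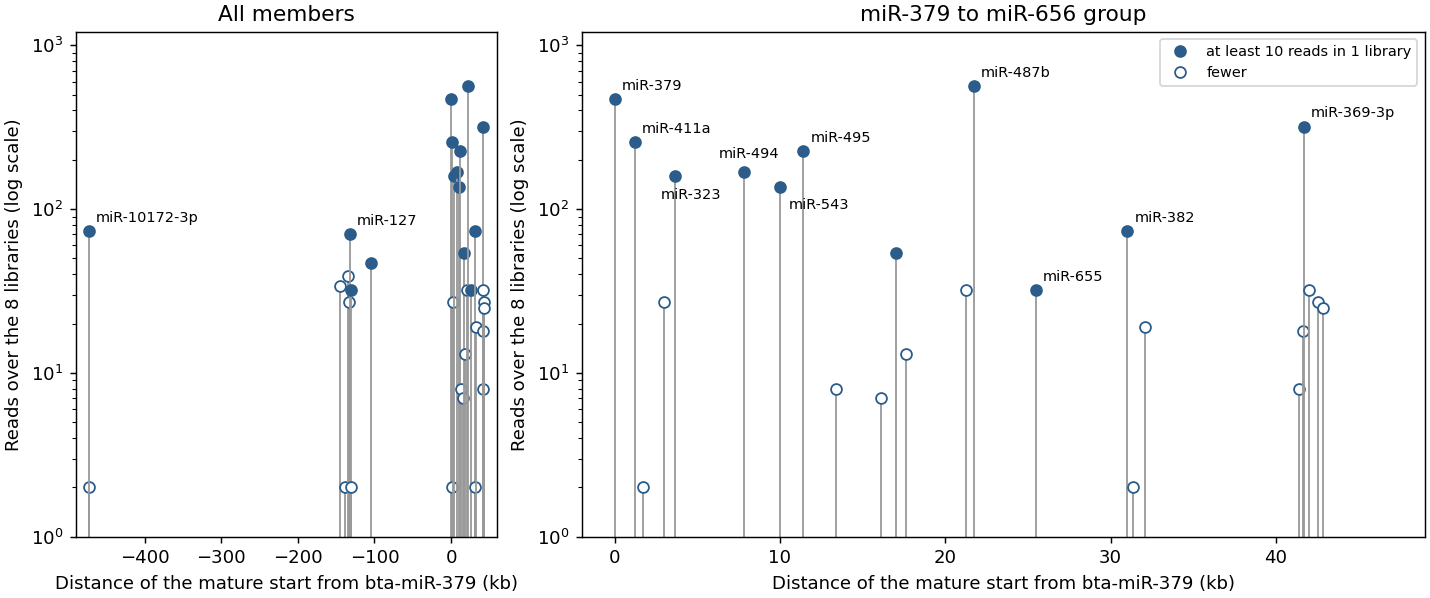
Total reads of each member over the 8 libraries (log scale) against the distance of its mature start from bta-miR-379 in kb; filled points reached at least 10 reads in 1 library. The right panel enlarges the miR-379 to miR-656 group, where bta-miR-487b with 565 reads and bta-miR-379 with 470 stand highest, and bta-miR-154c (8) and bta-miR-376e (7) are among the lowest.

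The 10 members with the most reads are given by library, since reads in each library set the precision of every later comparison. Bta-miR-487b (chr21:67583608-67583629) had 100, 85, 69 and 48 reads in forage replicates 1 to 4 and 62, 41, 76 and 84 in HG replicates 1 to 4. Bta-miR-379 (chr21:67561884-67561904) had 73, 67, 69 and 53 reads on forage and 52, 36, 59 and 61 on HG. Bta-miR-369-3p (chr21:67603583-67603603) had 55, 45, 41 and 37 reads on forage and 33, 27, 44 and 37 on HG. All 3 were lowest in HG replicate 2 among the HG libraries, and their diets overlapped.

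Bta-miR-411a (chr21:67563112-67563133) had 35, 26, 29 and 23 reads on forage and 21, 67, 28 and 29 on HG. Bta-miR-494 (chr21:67569725-67569746) had 26, 31, 18 and 12 reads on forage and 4, 44, 16 and 17 on HG. Bta-miR-543 (chr21:67571873-67571894) had 17, 15, 16 and 9 reads on forage and 7, 42, 15 and 15 on HG. These 3 members were highest in HG replicate 2, in contrast to the 3 most abundant ones, and their other HG libraries had no more reads than the highest forage library.

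Bta-miR-495 (chr21:67573283-67573304) had 33, 41, 29 and 27 reads on forage and 17, 16, 30 and 33 on HG. Bta-miR-323 (chr21:67565517-67565538) had 20, 30, 21 and 15 reads on forage and 17, 20, 14 and 23 on HG. Bta-miR-382 (chr21:67592888-67592909) had 15, 17, 12 and 6 reads on forage and 5, 3, 7 and 8 on HG. Only for the last of these did most forage libraries exceed all HG libraries in reads.

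Bta-miR-10172-3p (chr21:67089324-67089345), the member outside the imprinted interval, had 13, 15, 8 and 4 reads on forage and 11, 10, 7 and 5 on HG. Bta-miR-655 (chr21:67587375-67587396) is added for its diet values and had 4, 6, 5 and 10 reads on forage, was unlisted in HG replicate 1, and had 2, 2 and 3 reads in HG replicates 2 to 4. Its total of 32 reads equals the median of all members.

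Levels were scaled to reads per 1000000 miRNA reads of the library (RPM). Bta-miR-487b was at 165 ± 25.8 RPM on forage and 185 ± 42.9 on HG (SD, n = 4). Bta-miR-379 was at 147 ± 13.4 and 147 ± 28.3, and bta-miR-369-3p at 99.7 ± 13.6 and 99.6 ± 14.9. On forage these 3 were followed by bta-miR-495 at 72.5 ± 8.67 and bta-miR-411a at 63.4 ± 9.61. In the forage order, bta-miR-487b and bta-miR-379 differed by less than the SD of the first, and bta-miR-495 and bta-miR-411a by less than the SD of the second, whereas bta-miR-379 and bta-miR-369-3p were further apart than their SDs. These levels compare mature miRNAs of almost equal length, but the ligation step of library preparation favours some ends, and its part in the order was not tested.

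**Figure D2:**
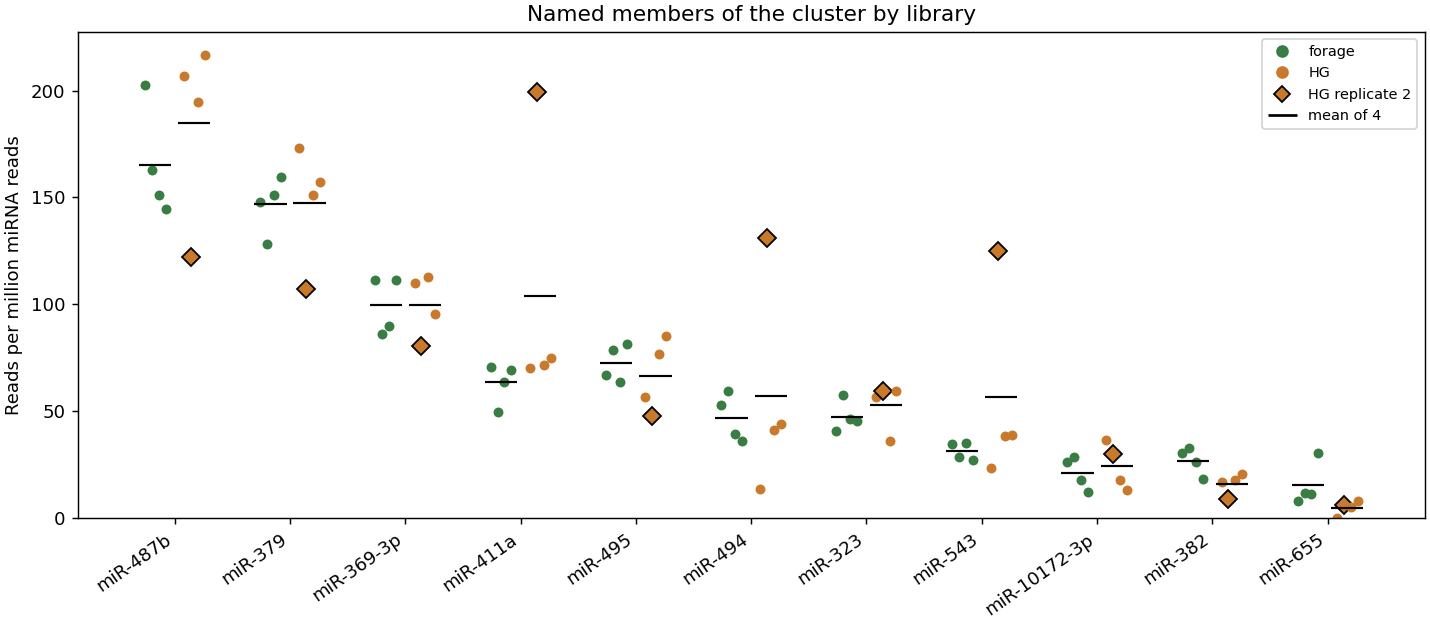
RPM (reads per 1000000 miRNA reads) of 11 named members in each library, with forage in green, HG in orange, HG replicate 2 as outlined diamonds and black lines at the mean of 4. HG replicate 2 stands above all other libraries for miR-411a (199), miR-494 (131) and miR-543 (125) and below them for miR-487b (122) and miR-379 (107).

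The remaining members lay in the miR-379 to miR-656 group and had few reads. Bta-miR-654 had 54 reads and at most 11 in a library. Bta-miR-381 and bta-miR-410 had 32 reads each. Bta-miR-380-3p and bta-miR-323b-3p had 27 each, bta-miR-656 had 25, bta-miR-485 had 19, bta-miR-369-5p had 18 and bta-miR-376a had 13. Bta-miR-154c and bta-miR-409a had 8 each, and bta-miR-376e had 7. Apart from bta-miR-654, none of these reached 10 reads in any library.

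The arms of a hairpin were listed in unequal numbers, as is usual where one arm is loaded into the silencing complex and the other is degraded. Bta-miR-369-3p had 319 reads and bta-miR-369-5p 18, so that the 3p arm held 94.7% of the hairpin's reads (95% Wilson interval 91.7% to 96.6%). The 3p arm was ahead in 8 of 8 libraries. At the bta-miR-10172 hairpin, outside the imprinted interval, both arms were also bovine entries. Its 3p arm had 73 reads and its 5p arm 2, so that the 3p arm held 97.3% (90.8% to 99.3%). For the hairpins that follow, the second arm was listed only under its human homologue. At miR-411, the 5p arm, bta-miR-411a, held 92.1% (88.4% to 94.8%) against 22 reads of hsa-miR-411-3p. At miR-409, hsa-miR-409-3p had 157 reads and bta-miR-409a 8, and at miR-485, hsa-miR-485-3p had 51 and bta-miR-485 19. At the miR-382 hairpin the pooled arms were close to equal, with 73 reads of bta-miR-382 and 69 of hsa-miR-382-3p, 51.4% for the first (43.3% to 59.5%), but the arm in the lead followed the diet. On forage, bta-miR-382 had 15, 17, 12 and 6 reads and hsa-miR-382-3p 14, 9, 4 and 4, so that the first was ahead in every library, with 50 reads against 31 in all. On HG, bta-miR-382 had 5, 3, 7 and 8 reads and hsa-miR-382-3p 10, 9, 10 and 9, so that the second was ahead in every library, with 38 reads against 23. This split was noticed after the values were seen and was not tested, and in 3 libraries it rests on a difference of 1 or 2 reads. The intervals cover counting error only.

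In the same window 20 human homologues were listed. Of these, 12 held the same reads as a member and add no information. The other 8 had 545 reads in all, or 18.1% of the members' reads. The most abundant of these were hsa-miR-329-3p with 161 reads, hsa-miR-409-3p with 157 and hsa-miR-376c-3p with 77. Reads of the cluster in rumen fluid are therefore counted incompletely by the bovine entries alone. The reads of 18 members were not divided with any other entry and those of 14 were divided equally between 2 entries. Bta-miR-323 and bta-miR-323b-3p shared part of their reads with each other and were divided more unevenly.

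The share of miRNA reads held by all members showed no separation of the diets. It was 0.0973%, 0.0918%, 0.0860% and 0.0880% in forage replicates 1 to 4, and 0.0893%, 0.101%, 0.0939% and 0.100% in HG replicates 1 to 4. The mean was 0.0908% ± 0.0050 on forage and 0.0962% ± 0.0056 on HG (SD, n = 4). With libraries of the same number taken as 1 cow, which the labels do not state outright, the share was higher on HG in 3 of 4 cows, and the libraries of the diets overlapped. With divided reads it was higher on HG in 2 of 4 cows. Relative to all reads it was also higher in 2 of 4, and the order of the means turned, with 0.0161% on forage and 0.0130% on HG. Without HG replicate 2 the HG mean was 0.0944%. Without the bta-miR-10172 entries the means were 0.0887% and 0.0936%.

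Fewer members were listed on HG, where the libraries were also shallower and fewer bovine entries of any kind were listed (302.5 ± 10.8, against 321 ± 10.5 on forage, SD, n = 4). The 4 forage libraries listed 28, 29, 27 and 25 members, and the HG libraries 22, 21, 28 and 24. Forage libraries held 331864 to 522804 miRNA reads and HG libraries 300116 to 390774. With each library thinned to the 300116 miRNA reads of HG replicate 1, the expected number of members with at least 2 reads was 23.5 to 23.8 on forage, and 22, 19.5, 25.4 and 23.1 in HG replicates 1 to 4. The diets overlapped both as deposited and after thinning, and HG replicate 2 was lowest in both. With same-numbered libraries taken as 1 cow, the number was higher on HG in 1 of 4 cows, before and after thinning. Over the whole series, 28 members were listed on both diets, 5 on forage only with at most 8 reads each, and 1 on HG only with 2 reads. These are 14.7% and 2.94% of the members, beside 13.2% and 4.11% of the other bovine entries.

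**Figure D3:**
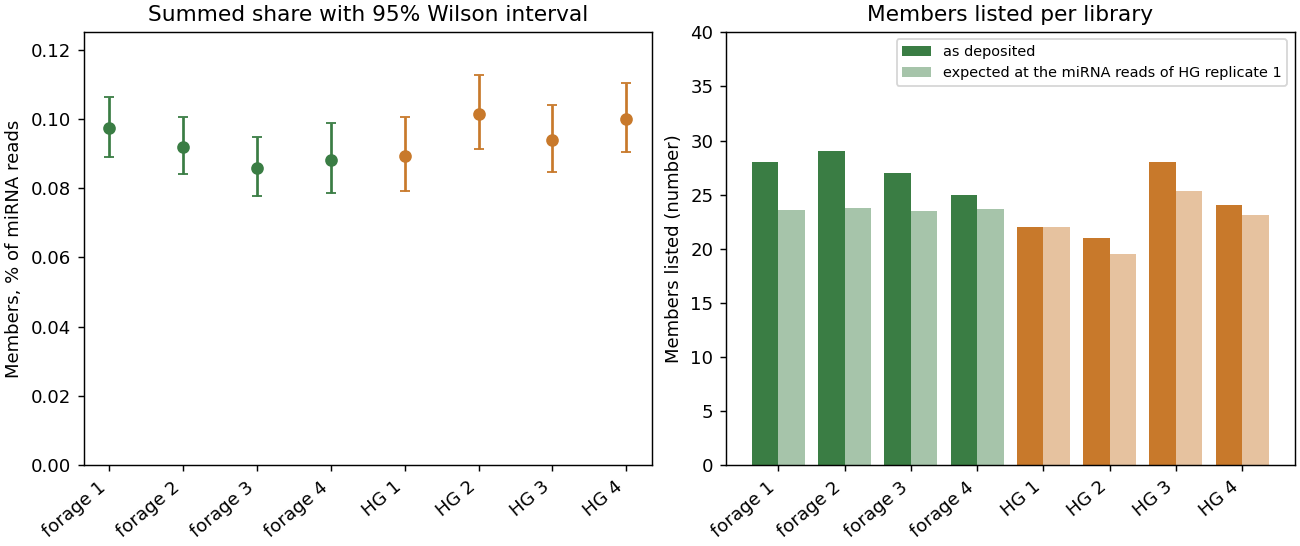
Left, members' summed share of miRNA reads (%) in each library with 95% Wilson intervals; right, the number of members listed, as deposited (solid) and expected at the miRNA read total of HG replicate 1 (pale). The shares run from 0.0860% to 0.101% with overlapping intervals, and the range of listed members narrows on forage to 23.5 to 23.8 at equal miRNA reads.

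The effect of the HG diet on single members was tested by edgeR (quasi-likelihood), blocking on the cow, over all entries that had at least 10 reads in 1 library. No entry had an adjusted p under 0.05, so the share called was 0%, and the smallest adjusted p was 0.788. Of the entries tested, 9 (2.39%) had an unadjusted p under 0.05, and none of these was a member. DESeq2 called 0 entries as well, with 3 at an unadjusted p under 0.05. Of the members, 15 were tested. Among them 5, bta-miR-382, bta-miR-655, bta-miR-654, bta-miR-432 and bta-miR-370, passed the minimum through forage libraries alone, which favours lower values on HG among them, and the 19 other members did not reach the minimum. With no minimum, all 34 members were tested, 0 were called and none had an unadjusted p under 0.05 (smallest adjusted p 0.906, edgeR). Of the 15 members past the minimum, 8 had a positive log2 fold change of HG over forage and 7 a negative one. Their median was 0.04, beside 0.03 over all entries tested. All 5 members that passed through forage alone were negative, and the median of the 10 others was 0.16, so neither median is read as a result about the members.

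The most abundant members had the narrowest intervals, all of which included 0. Bta-miR-379 had a log2 fold change of 0.04 (SE 0.13, 95% interval -0.29 to 0.37), bta-miR-369-3p of 0.05 (SE 0.17, -0.36 to 0.46) and bta-miR-487b of 0.19 (SE 0.17, -0.23 to 0.61). Bta-miR-487b was higher on HG in 3 of 4 cows, and its adjusted p was 0.788 (edgeR). For bta-miR-495 the log2 fold change was -0.09 (SE 0.21) and for bta-miR-323 it was 0.20 (SE 0.25). With these intervals, a change of bta-miR-379 beyond 0.37 on the log2 scale in either direction lay outside the 95% range, whereas for less abundant members the range was wider.

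Bta-miR-655 had the smallest unadjusted p of the members. Its level was 15.2 ± 10.1 RPM on forage and 4.70 ± 3.32 on HG (SD, n = 4, the unlisted library taken as 0). The log2 fold change was -1.55 (SE 0.67, -3.21 to 0.11), with an adjusted p of 0.788 by edgeR and an unadjusted one of 0.062. It was lower on HG in 4 of 4 cows, as were 26 of the entries tested (6.90%). All its HG libraries lay below all its forage libraries, which held for 10 of the entries tested (2.65%) and for no other tested member. It rests on 2 to 10 reads per library where listed, and it was tested only because forage replicate 4 reached 10 reads.

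Bta-miR-382 followed, with 26.8 ± 6.37 on forage and 16.03 ± 5.01 on HG and a log2 fold change of -0.69 (SE 0.42, -1.73 to 0.36). It was lower on HG in 3 of 4 cows, and the value was -0.43 without replicate 2 of both diets and -0.44 without HG replicate 2 alone. After scaling to depth, bta-miR-10172-3p was higher on HG in 4 of 4 cows, as were 32 of the entries tested (8.49%), at a log2 fold change of 0.24 (SE 0.33). No tested member had all HG libraries above all forage libraries, which held for 7 of the entries tested (1.86%).

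Bta-miR-543 and bta-miR-411a had the highest positive values, 0.70 (SE 0.52) and 0.65 (SE 0.43) on the log2 scale, with an adjusted p of 0.788 each by edgeR. Both depended on HG replicate 2. When replicate 2 of both diets was left out, bta-miR-543 was at 0.05 and bta-miR-411a at 0.09, and bta-miR-494 went from 0.14 (SE 0.52) to -0.37.

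**Figure D4:**
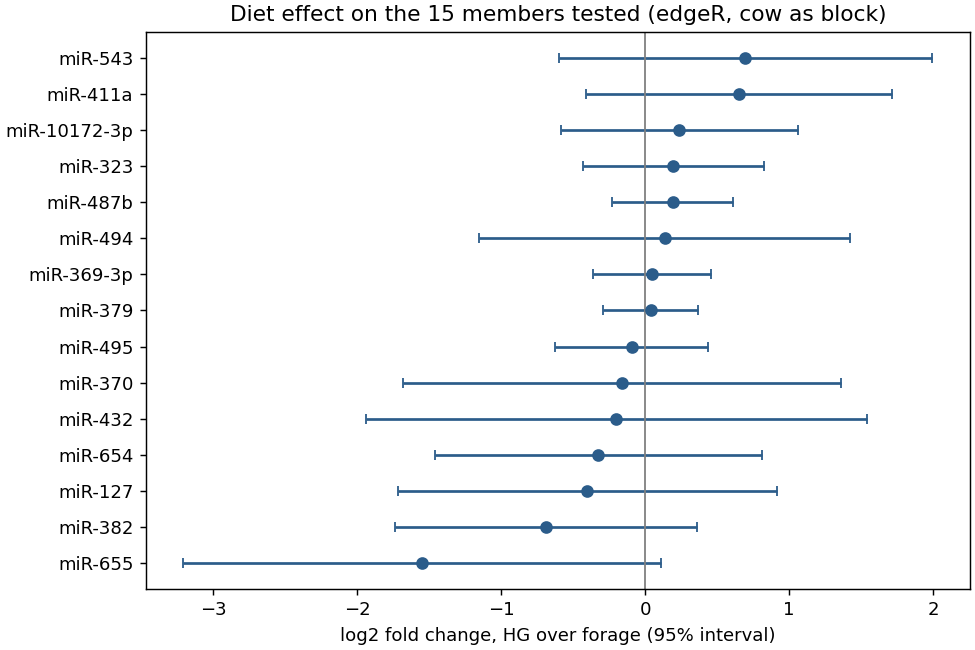
Log2 fold change of HG over forage with its 95% interval for the 15 members tested by edgeR with the cow as a block. Every interval includes 0; the narrowest belongs to miR-379 (-0.29 to 0.37), and miR-655 (-3.21 to 0.11) lies furthest to the left.

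HG replicate 2 lay above the other 7 libraries for 3 members of the cluster in particular. Bta-miR-543 was at 125 RPM there (95% Wilson interval 92.4 to 169) against 32.6 over the other 7 libraries pooled, 3.83 times as high. Bta-miR-494 was at 131 (97.5 to 176) against 43.0, or 3.04 times, and bta-miR-411a at 199 (157 to 253) against 66.2, or 3.01 times. These 3 hairpins lie within 8.76 kb of each other. Bta-miR-323, which lies between bta-miR-411a and bta-miR-494, was only 1.23 times as high, and bta-miR-495, 1.41 kb beyond bta-miR-543, was lowest in this library.

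The abundant neighbours of these members were lower in the same library. Bta-miR-487b was at 122 (89.9 to 165) against 182, and bta-miR-379 at 107 (77.4 to 148) against 150. Of the 15 members with at least 10 reads in a library, HG replicate 2 was the highest library for 4 and the lowest for 7, and 9 lay below the pooled level of the others. The median ratio to that level was 0.712, beside 0.848 over the 268 bovine entries with the same minimum. Of these 268, it was the highest library for 27.6% and the lowest for 50%, 65.7% lay below the pooled level, and 20 entries were at least 2 times the pooled level. The reads there came from 3 distinct sequences for bta-miR-543, against 2 to 4 in the other libraries, and from 2 for bta-miR-494, against 1 or 2. For bta-miR-411a they came from 3, against 4 to 6, so that its higher level did not come with more distinct sequences.

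The members' summed share hid these opposite values. HG replicate 2 had a share of 0.101%, the highest of the 8 libraries with reads counted in full. Without the bta-miR-10172 entries it was at 0.0985% and HG replicate 4 at 0.0987%, and with divided reads it was at 0.0608%, within the 0.0568% to 0.0661% of the other libraries. Without bta-miR-543, bta-miR-411a and bta-miR-494, a set chosen after their values were seen, its share was 0.0559%, below the 0.0721% to 0.0843% of the other libraries.

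Markers of other cell types also differed in this library. Listed markers of stroma and smooth muscle made up 9.07% of its miRNA reads, against 6.56% to 7.06% in the other 7, and markers of epithelium 2.80% against 2.04% to 2.13%. Erythrocyte markers were at 14.98% against 19.8% to 20.6%, and leukocyte markers at 1.87% against 2.26% to 2.33%. Nervous tissue markers were at 0.715% against 0.940% to 1.05%, and striated muscle markers at 0.501% against 0.644% to 0.762%. All listed markers were found in the libraries except 1 of 7 of epithelium, bta-miR-203, and the nervous tissue marker bta-miR-137 was listed in 3 libraries only. In the stroma, erythrocyte and striated muscle lists, a single entry held most of the reads. These were bta-miR-143 with 199669 reads in all, bta-miR-451 with 532591 and bta-miR-1 with 20374. Single markers did not all follow their list's sum. Against the median of the other libraries, the leukocyte markers bta-miR-146a and bta-miR-142-3p were 1.54 and 1.203 times as high and the striated muscle marker bta-miR-499 1.34 times, whereas bta-miR-214 of stroma was at 0.897 times and bta-miR-200b of epithelium at 0.892 times. The part of these differences in the members' values was not tested.

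**Figure D5:**
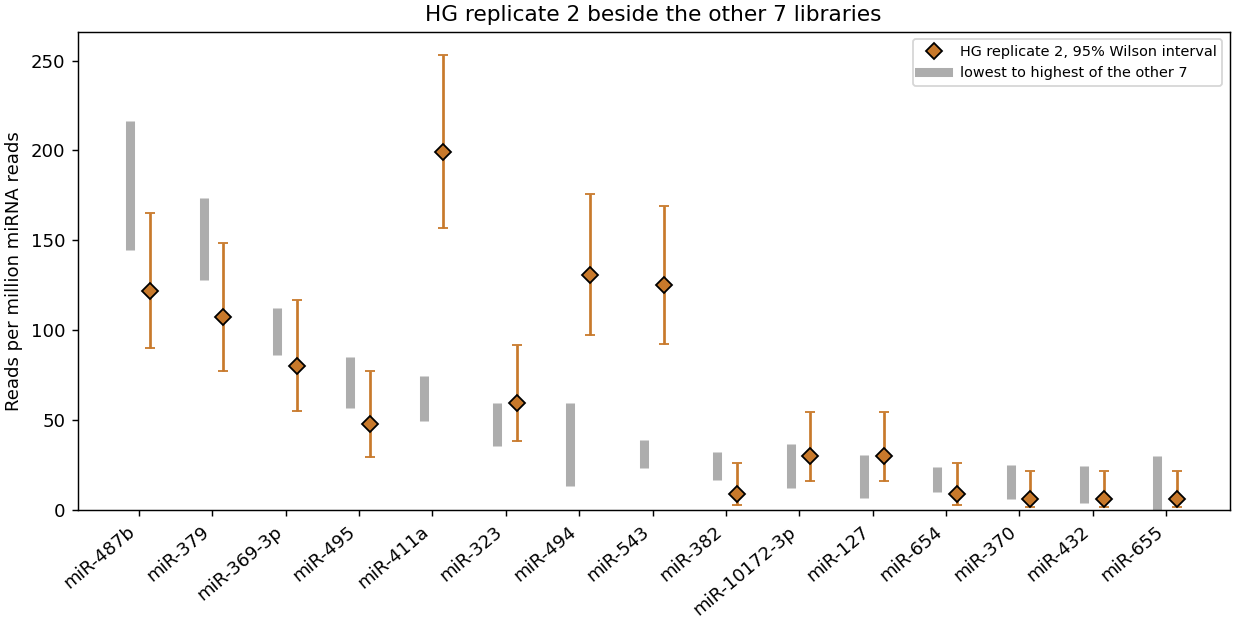
RPM (reads per 1000000 miRNA reads) of the 15 members with at least 10 reads in a library, in HG replicate 2 (diamonds, 95% Wilson interval) beside the lowest to highest value of the other 7 libraries (grey bars). The intervals of miR-411a, miR-494 and miR-543 lie wholly above the grey bars, while miR-487b and miR-379 lie below theirs with intervals that overlap them.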

How the data were processed

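Small RNA libraries from rumen fluid of 4 cows on forage and on HG were analysed. Per the methods of the study, the authors demultiplexed reads with bcl2fastq 2.20, trimmed adapters with Skewer, and assigned reads with sRNAbench to miRBase entries of cattle and their human homologues on UMD3.1. The deposited tables hold, per entry, read counts (a read mapping to several entries counts in full at each), expected counts (such reads divided among the entries), RPM of all reads, and a score per 1000000 miRNA reads, in which multi-mapping reads again count in full. The lowest count listed is 2, and unlisted entries were taken as 0. The table of normalized counts was not used here.

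Library totals were recovered from counts and RPM. The 8 libraries held 300116 to 522804 miRNA reads, or 6.67% to 29.3% of all reads, which limits rare members to a few reads each. Shares have Wilson 95% intervals, which cover counting error only. Reads carry no molecular identifiers.

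Diets were compared with edgeR 4.0.16 (quasi-likelihood, TMM) in R 4.3.3 with cow and diet as terms, over the entries with at least 10 reads in 1 library, and with Benjamini-Hochberg adjustment at 0.05. The pairing comes from the cows, each sampled on both diets, with the replicate number in the labels taken as the cow. Deviations of same-numbered libraries correlated at 0.00, -0.09, 0.05 and -0.01, within the range of the other pairs (-0.14 to 0.22), so the data themselves do not show the pairing, and counts over cows rest on the design. DESeq2 1.42.0, RLE size factors, divided reads rounded to whole numbers, no minimum, bovine entries alone, no block, and leaving out libraries were tried. The scripts were tested on simulated data.

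Named were the 10 members with the most reads, bta-miR-487b, bta-miR-543 and bta-miR-655, and the 3 members with the smallest p. The members and lists were chosen with earlier results of these data known. Mature sequences were not used here.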

Additional observations from a re-analysis of the deposited data

Results flagged for a closer look

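In 4 of 26 groups of 4 libraries, 1 library lay far from the other 3 by Dixon's test, where chance marks about 1 in 20 groups. Bta-miR-411a was at 199 reads per 1000000 miRNA reads in HG replicate 2 and at 69.97 to 74.7 in the other HG libraries. Bta-miR-543 was at 125 in the same library and at 23.3 to 38.6 in the others. Bta-miR-323 was at 35.8 in HG replicate 3, below the other HG libraries at 56.6 to 59.5. Bta-miR-655 was at 30.1 in forage replicate 4, from 10 reads, above the other forage libraries at 8.09 to 11.5.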

How the results depend on the processing

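The 11 named members' diet values were recomputed under 12 alternatives where they could be fitted, and 121 of 130 values kept their direction. Without the block for the cow, 0 entries and 0 members were called, as with it, with 7 entries at an unadjusted p under 0.05. The unpaired log2 fold change was -1.48 for bta-miR-655 and 0.20 for bta-miR-487b, and with all libraries the block changed no call. Calls over all entries ranged from 0 to 2 when libraries were left out, and the 2 calls, neither a member, came without replicate 2 or without HG replicate 2. Without HG replicate 2 and without the block, a setting chosen after seeing the data, 0 were called (smallest adjusted p 0.263, edgeR). Leaving out libraries with the block kept, the log2 fold change of bta-miR-379 ranged from -0.037 to 0.069, of bta-miR-369-3p from -0.049 to 0.12, of bta-miR-495 from -0.22 to 0.053 and of bta-miR-494 from -0.37 to 0.61. Bta-miR-543 ranged from 0.043 to 1.05, bta-miR-411a from 0.084 to 0.86, bta-miR-487b from 0.050 to 0.31, bta-miR-323 from 0.092 to 0.37, bta-miR-10172-3p from 0.13 to 0.30 and bta-miR-382 from -0.99 to -0.43. Bta-miR-655 ranged from -1.83 to -1.33, but it could not be tested without replicate 4, which holds its highest value. It had an unadjusted p under 0.05 with divided reads (adjusted p 0.813, edgeR). Without HG replicate 2 and without the block, bta-miR-487b had one too, at 0.29 (adjusted p 0.824, edgeR), and bta-miR-495 was at 0.023, bta-miR-494 at -0.50 and bta-miR-10172-3p at -0.016. The number of members was 34. It was 15 with at least 10 reads in a library, and also 15 with reads in all 8. The sets differ, as bta-miR-655 is only in the first and bta-miR-431 only in the second. The members' share on forage and HG was 0.0597% and 0.0622% with divided reads, 0.0161% and 0.0130% of all reads, 0.0743% and 0.0777% without bta-miR-487b, and 0.0766% and 0.0744% without bta-miR-543, bta-miR-411a and bta-miR-494, the last chosen after seeing the data. The order of the diets thus turned relative to all reads and without those 3 members, a set high in HG replicate 2; without that library the HG mean for the latter was 0.0806% and the order did not turn. The cause was not tested. A few reads per library limit the precision of the 19 members under the minimum.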
